A study of Mus musculus with 12 samples.

Results

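The mural genes described here are 10 genes of smooth muscle cells and pericytes, measured in 12 RNA sequencing libraries of mouse hearts. They were picked by symbol, by a rule that uses no measured value but was written with earlier results of these data known: Acta2, Myh11, Tagln and Cnn1 stand for the contractile apparatus of smooth muscle, and Rgs5, Pdgfrb, Kcnj8, Abcc9, Cspg4 and Notch3 for pericytes. All 10 were found among the 24918 genes of the deposited table, and all 10 passed the filter on low values that left 14721 genes for testing. The study compared mice that lack the glucocorticoid receptor in cardiomyocytes with their floxed controls in both sexes. The cardioGRKO mice were GRloxP/loxP and carried αMHC-Cre, a Cre recombinase driven by the cardiomyocyte promoter of the alpha myosin heavy chain, and the floxed mice were homozygous GRloxP without Cre. There were 3 libraries in each of 4 groups, male cardioGRKO, male floxed, female cardioGRKO and female floxed, all from untreated hearts of C57BL/6 mice at 2 months of age. Only the cardioGRKO groups carried Cre, so an effect of Cre and one of the deletion cannot be told apart. The groups rest on the sample titles, since the genotype field calls every sample wild-type. Nothing in the labels says that the libraries come from separate animals, so the p-values measure the spread between these libraries.

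Mural cells wrap the endothelial tubes of blood vessels. Smooth muscle cells sit on arteries, arterioles and larger veins and set vessel tone with an actin and myosin apparatus, whereas pericytes lie on capillaries and share their basement membrane. Endothelial cells recruit both by releasing PDGF-B, which binds the receptor Pdgfrb, and Notch3 keeps arterial smooth muscle differentiated. The genes of the contractile apparatus are controlled by serum response factor with myocardin at CArG boxes in their promoters. In mouse hearts, Kcnj8 and Abcc9 encode the pore and the regulatory subunit of the ATP-sensitive potassium channel of mural cells. In the RefSeq annotation they are neighbouring coding genes on chromosome 6. Abcc9 is also used by cardiomyocytes, so that it is a less strict marker in a heart than Rgs5 or Kcnj8. Pdgfrb and Notch3 act in smooth muscle cells too, so contractile and pericyte genes are not a strict split of cell types.

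Promoter sequences were searched for the regulatory letters named above. RefSeq entries on build GRCm38.p6 were matched for 7 of the 10 genes (Acta2, Cnn1, Rgs5, Kcnj8, Abcc9, Cspg4 and Notch3). Myh11, Tagln and Pdgfrb had no entry, so Acta2 and Cnn1 alone stand for the contractile genes here. The 250 bases before the annotated start are shown for Acta2 at chr19:34255374-34255623 on the minus strand, Cnn1 at chr9:22099003-22099252 on the plus strand and Rgs5 at chr1:169655251-169655500 on the plus strand. Each runs 5′ to 3′ along the gene, and capitals mark a CArG-like site, which is a CArG box with 1 of its inner letters changed.
Acta2: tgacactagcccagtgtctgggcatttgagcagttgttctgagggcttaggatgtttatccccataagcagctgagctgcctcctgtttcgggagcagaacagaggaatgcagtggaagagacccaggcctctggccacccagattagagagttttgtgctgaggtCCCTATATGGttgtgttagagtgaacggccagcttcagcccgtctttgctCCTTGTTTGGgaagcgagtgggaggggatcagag
Cnn1: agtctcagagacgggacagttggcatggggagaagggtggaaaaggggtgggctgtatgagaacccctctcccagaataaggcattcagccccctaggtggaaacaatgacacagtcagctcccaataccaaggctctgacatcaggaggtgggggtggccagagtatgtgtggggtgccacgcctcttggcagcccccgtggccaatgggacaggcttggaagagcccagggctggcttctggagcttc
Rgs5: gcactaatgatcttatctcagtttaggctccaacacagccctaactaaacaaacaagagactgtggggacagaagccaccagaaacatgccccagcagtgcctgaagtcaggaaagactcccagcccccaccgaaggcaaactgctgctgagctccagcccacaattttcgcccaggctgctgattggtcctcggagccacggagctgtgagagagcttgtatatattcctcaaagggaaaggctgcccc
The motifs were searched on both strands in windows of 300 bases, from 250 before to 50 after the start. An unaltered CArG box stood in 1.63% of 32851 such windows over all genes and in none of the 7. The search for CArG-like sites also matched unaltered boxes, and it had a match in 9.98% of all windows. Among the 7, it had matches in that of Acta2 alone, at bases -84 to -75 (CCCTATATGG) and -34 to -25 (CCTTGTTTGG) from the start. The letters TGGGAA, the core bound by the Notch partner RBPJ, stood in 25.6% of all windows and in those of Acta2, Kcnj8 and Abcc9, and in Acta2 they overlap the second CArG-like site by 3 bases. The palindrome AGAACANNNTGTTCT, to which the glucocorticoid receptor binds, stood in 0.00913% of all windows and in none of the 7. These are matches of letters in short windows and say nothing about binding.

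Each library gave 1 log2 value per gene, and the medians of the tested genes lay between 9.06 and 9.08 in all 12 libraries. The targeted gene, Nr3c1, which encodes the glucocorticoid receptor, averaged 10.85 in male cardioGRKO hearts and 11.41 in male floxed hearts, a log2 difference of -0.56 (limma adjusted p = 2.4e-11). In the other sex it went against the labels, with a mean of 10.88 in the libraries labelled female cardioGRKO and of 10.74 in those labelled female floxed, a difference of 0.14 (limma adjusted p = 0.00038). Both female means lay near the 10.85 of male cardioGRKO hearts and below the 11.41 of male floxed hearts. Whichever way the female labels are read, the female difference was smaller in size than the -0.56 of males. The groups are therefore named by their labels in what follows, and every direction in females depends on those labels. The size of every comparison between the sexes, and of every male change minus female change, depends on them too. In 2 of the 3 libraries labelled female floxed, numbers 1 and 2, the corneal keratin gene Krt12 read 13.13 and 13.98, against 7.16 to 8.49 in the other 10 libraries. The female results of the 10 genes are given without these 2 libraries wherever that changes a call or moves a called value by over 1.5 times. Every gene of the cardiomyocyte, endothelial and mural lists had values in these hearts, and none was listed at 0 in all libraries.

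Per kilobase of exon, Acta2 had the highest mean level of the 10 genes over the 12 libraries, at 12.81 on the log2 scale. Tagln followed at 10.16, Rgs5 at 10.08, Abcc9 at 9.93, Kcnj8 at 9.54, Pdgfrb at 9.50, Myh11 at 8.60, Notch3 at 8.42 and Cspg4 at 7.46, and Cnn1 was lowest at 6.06. The contractile genes thus spanned the whole range, with the most and the least abundant of the set among them. Replicates lay close together: within a group the SD of a gene's 3 log2 values ranged from 0.0027 to 0.073, with a median of 0.030.

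In male hearts the 4 contractile genes did not move as 1 block. Acta2, the smooth muscle alpha actin, was higher in cardioGRKO hearts, Myh11 and Tagln were lower, and Cnn1 did not pass the test. Among all tested genes, 27.4% were called in this comparison, 12.8% higher and 14.6% lower (limma, Benjamini-Hochberg adjusted p under 0.05). Acta2 had log2 values of 13.64, 13.61 and 13.61 in male cardioGRKO hearts, against 13.31, 13.31 and 13.25 in male floxed hearts. Every cardioGRKO value lay above every floxed value, and the difference was 0.33 ± 0.02 (SE), a 1.26-fold higher level (limma adjusted p = 1.9e-09). Myh11, the smooth muscle myosin heavy chain, had 11.09, 11.04 and 11.10 in cardioGRKO hearts, against 11.36, 11.39 and 11.34 in floxed hearts. Its groups were likewise apart but in the other direction, with a difference of -0.29 ± 0.025 or 0.82-fold (limma adjusted p = 1.4e-07). Tagln, which encodes the actin-binding protein transgelin, had 10.67, 10.66 and 10.66 in cardioGRKO hearts, against 10.85, 10.87 and 10.82 in floxed hearts. It fell by 0.19 on the log2 scale (limma adjusted p = 4.8e-05) with no overlap. Cnn1, the calponin of smooth muscle, had 7.31, 7.36 and 7.29 in cardioGRKO hearts, against 7.33, 7.28 and 7.42 in floxed hearts. These values overlapped, and the difference of -0.023 had a 95% interval of -0.098 to 0.051 (limma adjusted p = 0.69). Of all 10 genes, 8 had male groups that did not overlap, against 41.4% of all tested genes. In bulk tissue, fewer cells of a type and less RNA per cell cannot be told apart, here and in all later comparisons.

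Within each library, Acta2 stood further above Myh11 in male cardioGRKO hearts than in male floxed hearts. The log2 level of Acta2 minus that of Myh11 averaged 2.55 ± 0.03 in male cardioGRKO hearts and 1.93 ± 0.02 in male floxed hearts (SD, n = 3 each). Against Tagln, Acta2 stood 2.96 ± 0.01 higher in male cardioGRKO hearts and 2.44 ± 0.01 higher in male floxed hearts. These gaps use the same values as the unequal changes given above and restate them within libraries, so they are not separate evidence. Reads of other actins could reach Acta2 only where transcripts are near identical. Of 1986 stretches of 50 bases in its transcript, 7 (0.353%) occur unchanged in another of the 5 other actins, all of them in Actg1, and 36 (1.81%) with up to 2 mismatches. Of 1961 stretches of 75 bases, 0 occur unchanged. Actc1, the cardiac alpha actin and the most abundant of them, shares none of either length, and averaged 18.38 in male cardioGRKO hearts and 18.38 in male floxed hearts. Acta1 shares 8 stretches of 50 bases with up to 2 mismatches. In males, Acta1 changed by 0.19, Actg1 by -0.32, Actb by -0.13 and Actg2 by -0.094. In the libraries labelled female, Acta1 changed by 0.42, Actc1 by 0.18, Actg1 by 0.067, Actb by -0.040 and Actg2 by -0.043. The part of these actins in the Acta2 values was not tested.

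The pericyte genes were lower in male cardioGRKO hearts, 5 of 6 by the test, against the 14.6% of all tested genes called lower. Rgs5, a regulator of G protein signalling and a leading marker of heart pericytes, had 12.12, 12.12 and 12.16 in male cardioGRKO hearts, against 12.40, 12.40 and 12.41 in male floxed hearts. All 3 cardioGRKO values lay below all 3 floxed values, a difference of -0.27 ± 0.026 (SE) or 0.83-fold (limma adjusted p = 5.6e-07). Pdgfrb, the receptor through which PDGF-B recruits mural cells, had 11.94, 11.93 and 11.94 in cardioGRKO hearts, against 12.11, 12.11 and 12.11 in floxed hearts. The replicates were nearly identical, and the difference was -0.17 ± 0.023 (limma adjusted p = 2.1e-05). Kcnj8, the channel pore, had 10.85, 10.78 and 10.76 in cardioGRKO hearts, against 11.06, 11.08 and 10.96 in floxed hearts, and was 0.85-fold as abundant (limma adjusted p = 2.4e-05). Its regulatory subunit Abcc9 had 12.95, 12.97 and 12.95 in cardioGRKO hearts, against 13.12, 13.11 and 13.14 in floxed hearts. Both channel genes were thus lower without overlap, Abcc9 by a difference of -0.17 ± 0.02 (limma adjusted p = 7.1e-06). Notch3, the Notch receptor of mural cells, had 11.32, 11.31 and 11.36 in cardioGRKO hearts, against 11.48, 11.54 and 11.49 in floxed hearts, with a difference of -0.17 ± 0.03 (limma adjusted p = 0.00033). Cspg4, the NG2 proteoglycan of pericytes and glial precursors, had 10.55, 10.47 and 10.51 in cardioGRKO hearts, against 10.53, 10.54 and 10.49 in floxed hearts. It was the exception, with overlapping groups and a difference of -0.011 with a 95% interval of -0.062 to 0.041 (limma adjusted p = 0.80).

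**Figure D1:**
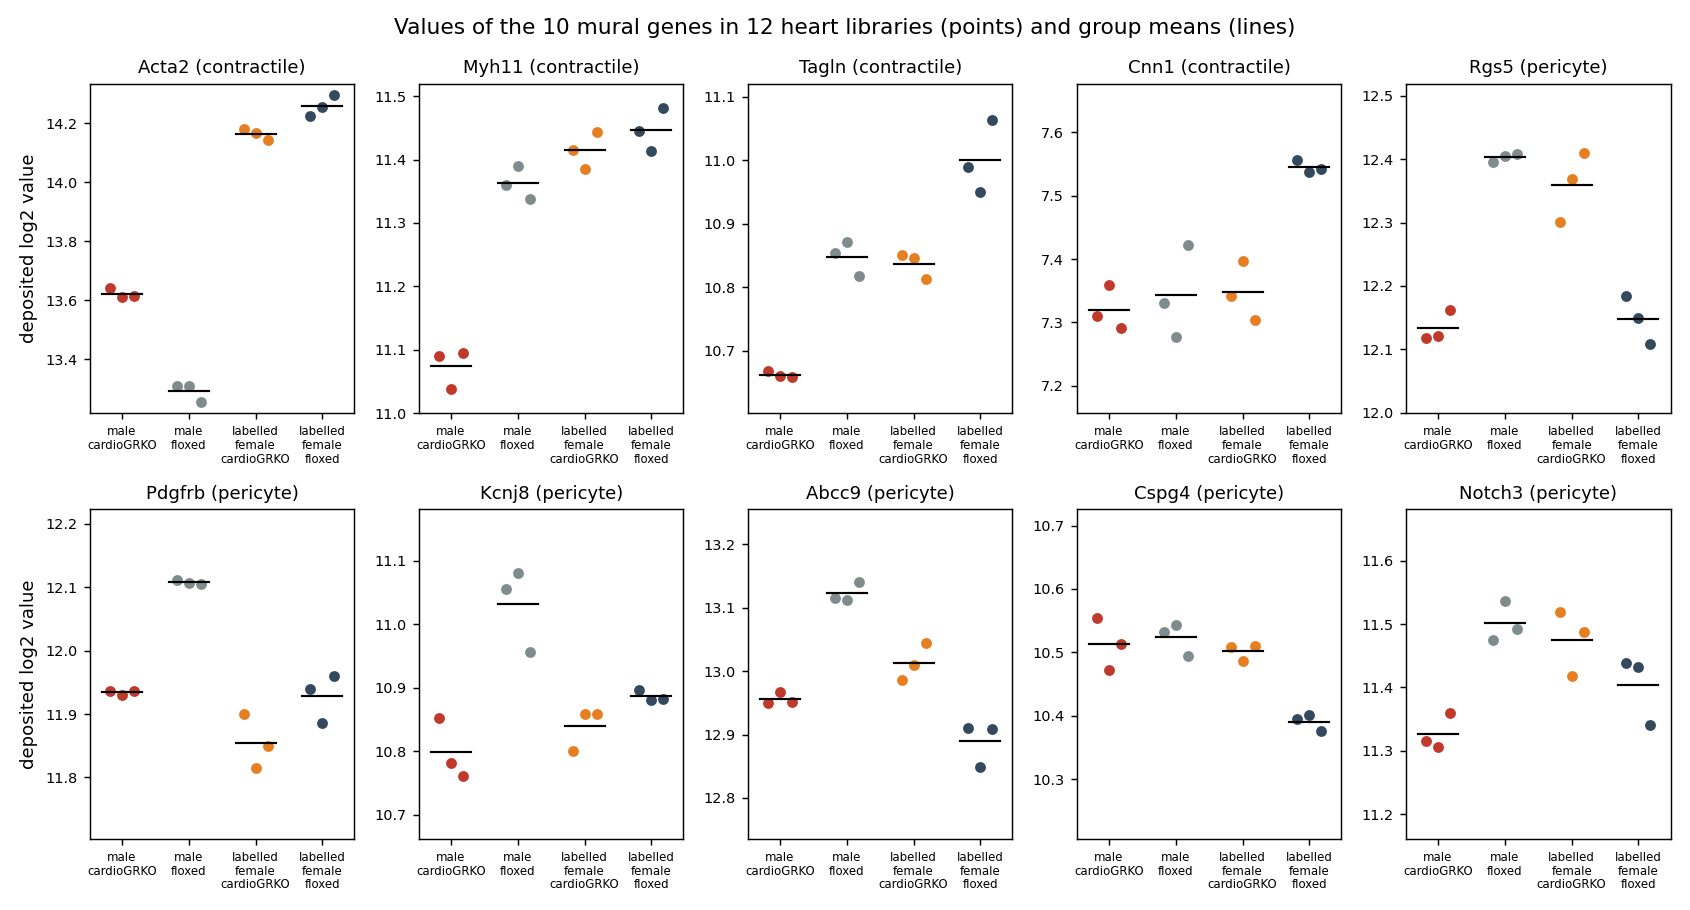
Deposited log2 values of the 10 mural genes by library, 1 panel per gene, with cardioGRKO left of floxed within each sex, points for libraries and a line for the mean of each group (n = 3). Acta2 stands lowest in male floxed hearts and highest in the libraries labelled female floxed, while Rgs5 is high in male floxed hearts and in the libraries labelled female cardioGRKO.

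In the libraries labelled female, the classes parted: 3 of the 4 contractile genes were lower under the cardioGRKO label and 3 of the 6 pericyte genes were higher. Of all tested genes, 29.3% were called here, 15.2% higher and 14.0% lower. Acta2 had 14.18, 14.17 and 14.15 in the libraries labelled female cardioGRKO, against 14.23, 14.26 and 14.30 in those labelled female floxed. The groups did not overlap, and the difference of -0.096 ± 0.02 (SE) had the opposite sign to that in males (limma adjusted p = 0.0019). After quantile normalization of the libraries it was -0.15 (limma adjusted p = 1.4e-05). Tagln had 10.85, 10.85 and 10.81 in the libraries labelled female cardioGRKO, against 10.99, 10.95 and 11.06 in those labelled female floxed. It was 0.89-fold as abundant, with no overlap (limma adjusted p = 0.00022). Cnn1 had 7.34, 7.40 and 7.30 in the libraries labelled female cardioGRKO, against 7.56, 7.54 and 7.54 in those labelled female floxed, which is 0.87-fold (limma adjusted p = 0.00048). Myh11 was the contractile gene that did not pass, at 11.41, 11.38 and 11.44 in the libraries labelled female cardioGRKO and 11.44, 11.41 and 11.48 in those labelled female floxed. Its groups overlapped, and the difference of -0.032 had a 95% interval of -0.084 to 0.021 (limma adjusted p = 0.37).

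Rgs5 had the largest female difference of the 10 genes. It read 12.30, 12.37 and 12.41 in the libraries labelled female cardioGRKO, against 12.18, 12.15 and 12.11 in those labelled female floxed. All values under the cardioGRKO label were above those under the floxed label, a difference of 0.21 ± 0.026 (SE) or 1.16-fold (limma adjusted p = 1.3e-05). Abcc9 had 12.99, 13.01 and 13.04 in the libraries labelled female cardioGRKO, against 12.91, 12.85 and 12.91 in those labelled female floxed, which is 1.09-fold (limma adjusted p = 0.00022). Cspg4 had 10.51, 10.49 and 10.51 in the libraries labelled female cardioGRKO, against 10.39, 10.40 and 10.38 in those labelled female floxed, which is 1.08-fold (limma adjusted p = 0.0025). Both were higher without overlap, and Cspg4 passed the test in this sex although it did not in males. Pdgfrb went the other way, with 11.90, 11.81 and 11.85 in the libraries labelled female cardioGRKO and 11.94, 11.89 and 11.96 in those labelled female floxed. Its groups overlapped, and the difference was -0.074 ± 0.023 (limma adjusted p = 0.025). That call depended on single libraries: without the library labelled female cardioGRKO 2 the difference was -0.054, without cardioGRKO 3 it was -0.072, without floxed 1 it was -0.068 and without floxed 3 it was -0.058, and none of these passed. It also fell short when all the libraries labelled female were kept but fitted without the male ones (limma adjusted p = 0.082).

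Kcnj8 and Notch3 did not pass the test in the libraries labelled female. Kcnj8 had 10.80, 10.86 and 10.86 in the libraries labelled female cardioGRKO, against 10.90, 10.88 and 10.88 in those labelled female floxed. These values were apart, yet the difference of -0.047 had a 95% interval of -0.11 to 0.019 (limma adjusted p = 0.29). Notch3 had 11.52, 11.42 and 11.49 in the libraries labelled female cardioGRKO, against 11.44, 11.43 and 11.34 in those labelled female floxed, and its groups overlapped. The Notch3 difference was 0.071 (limma adjusted p = 0.093), but 0.099 without the library labelled female cardioGRKO 2 (limma adjusted p = 0.032) and 0.13 without the libraries labelled female floxed 1 and 2 (limma adjusted p = 0.0091). Among the other 9 genes, leaving out those 2 libraries changed no female call. The groups did not overlap for 7 of the 10 genes, against 40.7% of all tested genes.

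Over each class, the median log2 change in males was -0.10 for the contractile genes and -0.17 for the pericyte genes, and all tested genes had a median of -0.0021. Contractile minus pericyte, this is 0.070. In the libraries labelled female the medians were -0.13 for the contractile genes and 0.091 for the pericyte genes, a difference of -0.22, with a median of -0.00037 over all tested genes. The corresponding level difference, the contractile median minus the pericyte median within a library, varied by an SD of 0.036 between libraries of a group. The spread within the contractile class in males, -0.29 for Myh11 to 0.33 for Acta2, was wider than the gap between the class medians. Without the library labelled female floxed 3 the female gap was -0.18, and without numbers 1 and 2 it was -0.28.

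**Figure D2:**
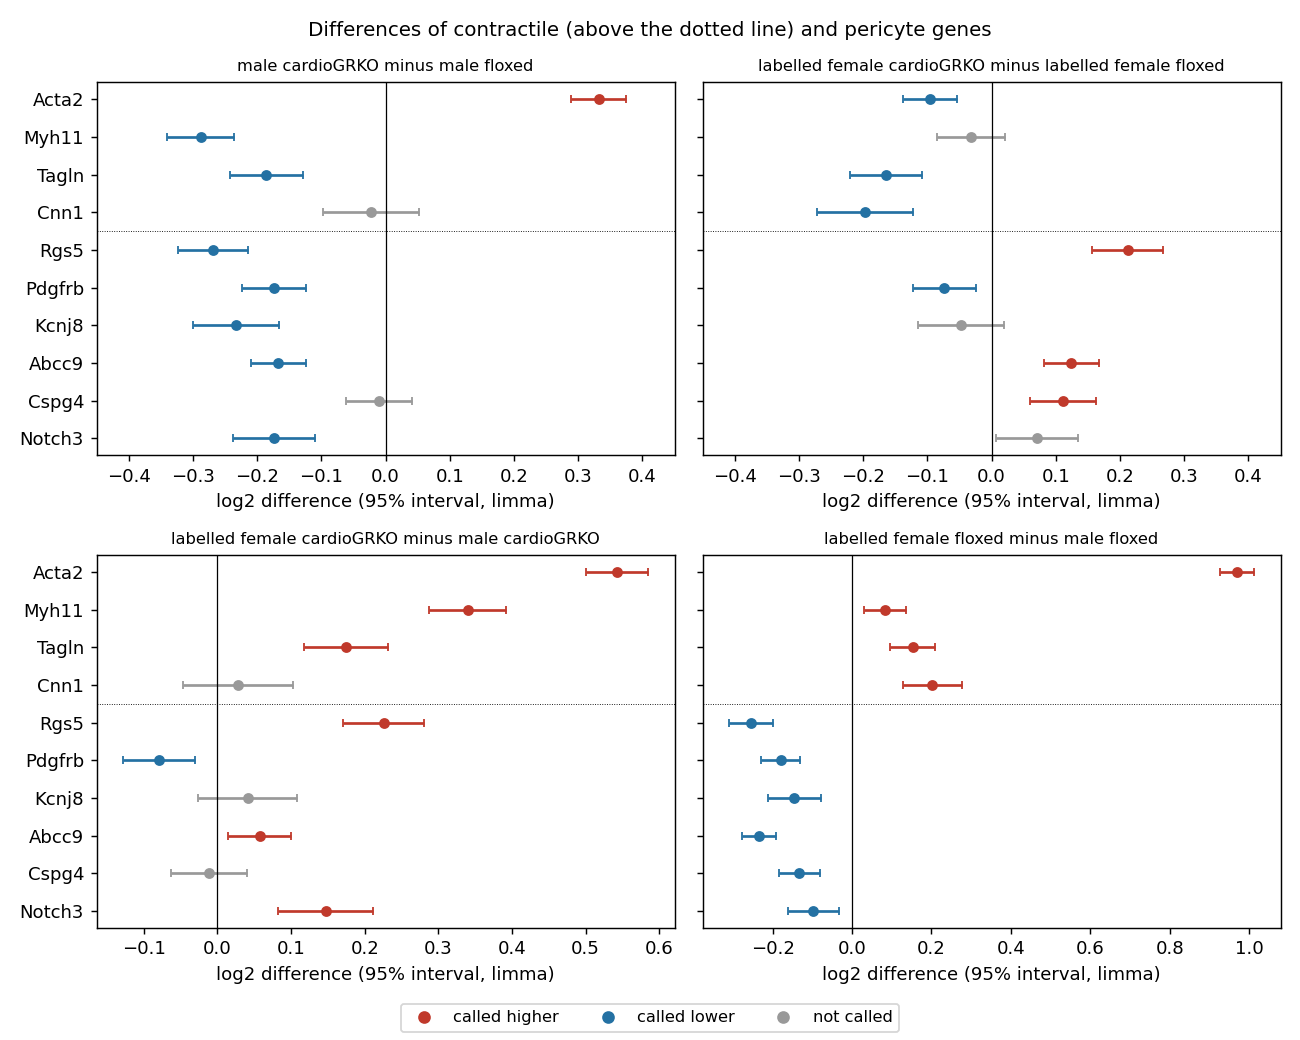
Log2 changes of the 10 genes with their 95% intervals in each comparison, with red points for genes called higher by limma, blue for called lower and grey for not called, and a dotted line between contractile and pericyte genes. In males Acta2 is called higher and 7 genes are called lower, and between the floxed groups all 4 contractile genes are above 0 and all 6 pericyte genes below.

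The change in males and that in females were set against each other directly, as the male change minus the female change. This difference was called for 9 of the 10 genes, 2 of them positive and 7 negative, against 31.3% of all tested genes, 14.3% positive and 17.0% negative. All 6 pericyte genes were negative, from -0.10 for Pdgfrb to -0.48 for Rgs5. Rgs5 had the largest, with a change of -0.27 in males and 0.21 in the libraries labelled female (limma adjusted p of the difference = 3e-08). Acta2 had the largest positive one, 0.43 ± 0.028 (limma adjusted p = 5.6e-09), followed by Cnn1 at 0.17 ± 0.05 (limma adjusted p = 0.013). Myh11 differed by -0.26 ± 0.035 (limma adjusted p = 2.5e-05). Tagln was the gene whose 2 changes were closest, -0.19 in males and -0.16 in the libraries labelled female. Their difference of -0.021 had a 95% interval of -0.10 to 0.059 (limma adjusted p = 0.72). All these values hold for the female labels as given. With those 2 labels exchanged, each female change would take the other sign. Of the genes called in both sexes, Acta2, Rgs5 and Abcc9 would then have changes of the same sign, and Tagln and Pdgfrb opposed ones. The Pdgfrb difference did not pass after quantile normalization (-0.043), nor without any one of male cardioGRKO 2 or 3, male floxed 1, or the libraries labelled female cardioGRKO 1 or female floxed 2 (-0.10 to -0.077), nor without the libraries labelled female floxed 1 and 2 (-0.069, limma adjusted p = 0.21). Acta2 was called higher in males and lower in the libraries labelled female, a combination held by 3.65% of all tested genes. Rgs5 and Abcc9 were called lower in males and higher in the libraries labelled female, as were 4.92% of all tested genes. Tagln and Pdgfrb were called lower in both, as were 1.69%, and 0 of the 10 were called higher in both, as were 2.25%.

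Between the sexes, the floxed groups separated the classes. All 4 contractile genes were higher in the libraries labelled female floxed than in male floxed hearts, and all 6 pericyte genes were lower, all 10 without overlap. In this comparison 44.2% of all tested genes were called, 21.5% higher and 22.7% lower, and the groups did not overlap for 50.8%. Acta2 averaged 14.26 ± 0.035 in the libraries labelled female floxed and 13.29 ± 0.031 in male floxed hearts (SD, n = 3 each), a 1.96-fold higher level (limma adjusted p = 1e-15). This was the largest difference of any of the 10 genes in any comparison. Cnn1 was 1.15-fold (limma adjusted p = 0.00019), Tagln 1.11-fold (limma adjusted p = 0.00020) and Myh11 1.06-fold (limma adjusted p = 0.012) as abundant in the libraries labelled female floxed. The Myh11 call was lost without male floxed 3 (0.071) or the library labelled female floxed 3 (0.066). On the pericyte side, Rgs5 averaged 12.15 ± 0.038 in the libraries labelled female floxed and 12.40 ± 0.0065 in male floxed hearts (limma adjusted p = 6e-07). Abcc9 differed by -0.23 (limma adjusted p = 8.4e-08), Pdgfrb by -0.18 (limma adjusted p = 9.5e-06), Kcnj8 by -0.14 (limma adjusted p = 0.0014), Cspg4 by -0.13 (limma adjusted p = 0.00031) and Notch3 by -0.097 (limma adjusted p = 0.016). The Notch3 call was lost without male floxed 2 (-0.080) or the library labelled female floxed 3 (-0.066) and after quantile normalization (-0.071), and was -0.16 without the libraries labelled female floxed 1 and 2.

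Between the cardioGRKO groups, where 24.2% of all tested genes were called (11.9% higher and 12.4% lower), the classes were not opposed. In the libraries labelled female cardioGRKO, 3 contractile genes were higher than in male cardioGRKO hearts, and so were 3 pericyte genes. Acta2 averaged 14.16 ± 0.018 in the libraries labelled female cardioGRKO and 13.62 ± 0.016 in male cardioGRKO hearts, which is 1.46-fold (limma adjusted p = 5.6e-12). Myh11 was 1.27-fold (limma adjusted p = 3.2e-08) and Tagln 1.13-fold (limma adjusted p = 0.00015) as abundant. Rgs5 was 1.17-fold (limma adjusted p = 7.6e-06) and Notch3 1.11-fold (limma adjusted p = 0.0020) as abundant. Pdgfrb was 0.95-fold (limma adjusted p = 0.020) and Abcc9 1.04-fold (limma adjusted p = 0.048) as abundant. The last 2 calls were not stable, Pdgfrb failing when any of 4 libraries was left out (male cardioGRKO 1 or 3, or the libraries labelled female cardioGRKO 2 or 3, with differences of -0.078 to -0.059) and Abcc9 failing under most settings. Cnn1, Kcnj8 and Cspg4 differed by 0.028, 0.041 and -0.011 and did not pass. For 7 of the 10 genes the groups did not overlap, against 40.1% of all tested genes. These comparisons share libraries with those of genotype, so their values are given side by side and not as separate evidence.

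Seen over the 4 groups, every contractile gene had its highest mean in the libraries labelled female floxed, as did 30.1% of all tested genes, and every pericyte gene had its highest mean in male floxed hearts, as did 28.6%. The lowest mean lay in male cardioGRKO hearts for Myh11, Tagln, Cnn1, Rgs5, Kcnj8 and Notch3. It lay in male floxed hearts for Acta2, in the libraries labelled female cardioGRKO for Pdgfrb and in those labelled female floxed for Abcc9 and Cspg4. For Acta2 and Abcc9 all neighbours in the order of groups were apart in their values. For Rgs5, male floxed hearts overlapped with the libraries labelled female cardioGRKO, and those labelled female floxed overlapped with male cardioGRKO hearts, so its values formed a high and a low pair. For Myh11, male cardioGRKO hearts lay below the other 3 groups, whose neighbours overlapped with each other. For Cspg4 the reverse held, with the libraries labelled female floxed lowest and the other 3 groups overlapping.

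Genes with a profile like that of Acta2 over the 12 libraries were many: 168 tested genes had a Pearson correlation above 0.9 with it, led by Tmem150a (0.989), Plekha6 (0.988), Col14a1 (0.988), Rfx2 (0.985) and Appl2 (0.984). For Rgs5 there were 66, led by Myadm (0.973), Oas2 (0.967) and Kitl (0.958). Pdgfrb had 103, led by St3gal4 (0.977), Car14 (0.970) and Efnb3 (0.969). Myh11 had 41, led by Pank4 (0.966), Psmb7 (0.964) and Myl2 (0.961), the ventricular myosin light chain. None of the leading genes is another of the 10, which were left out of the search. The 12 points fall into 4 groups that share their libraries with every result above, so these correlations describe similar group means.

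A list of 20 other genes of contractile smooth muscle holds receptor, channel and adhesion genes beside those of the contractile apparatus. Of these, 5 were higher and 9 lower in male cardioGRKO hearts, and 4 were higher and 9 lower in the libraries labelled female cardioGRKO. The medians were -0.039 in males and -0.054 in females. Over all tested genes, 12.8% were higher and 14.6% lower in males, and 15.2% were higher and 14.0% lower in the libraries labelled female. Without the libraries labelled female floxed 1 and 2, the female counts were 2 higher and 8 lower. Ramp1, the subunit that turns the calcitonin receptor-like receptor into a CGRP receptor, averaged 9.10 in male cardioGRKO hearts and 8.68 in male floxed hearts (limma adjusted p = 1.3e-09). It averaged 8.73 in the libraries labelled female cardioGRKO and 9.06 in those labelled female floxed (limma adjusted p = 4.3e-08). Myl9, the regulatory light chain of smooth muscle myosin, changed by 0.41 in males (limma adjusted p = 6.9e-07) and by -0.52 in the libraries labelled female (limma adjusted p = 7e-08). Ramp1 and Myl9 thus had the signs of Acta2. Smtn, the filament protein smoothelin, fell in the libraries labelled female, by 0.26 on the log2 scale (limma adjusted p = 7e-08), and did not pass in males at 0.053 (limma adjusted p = 0.056). Pcp4l1 changed by -0.24 in males (limma adjusted p = 6.2e-08) and by -0.14 in the libraries labelled female (limma adjusted p = 2.5e-05), and so was lower in both, as Tagln was.

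Of 15 regulators and matrix genes of smooth muscle, 3 were higher and 1 lower in males, and 2 were higher and 3 lower in the libraries labelled female, or 1 higher and 2 lower without the libraries labelled female floxed 1 and 2. Over all tested genes, 27.4% were called in males and 29.3% in the libraries labelled female, so 4 called of 15 in males and 5 of 15 in females were near the share over all genes. Eln, the elastin of arterial walls, rose by 0.33 in male cardioGRKO hearts (limma adjusted p = 7.1e-09) and changed by -0.16 in the libraries labelled female cardioGRKO (limma adjusted p = 6.1e-05). Fbln5, which is needed to assemble elastic fibres, rose by 0.22 in males (limma adjusted p = 1.2e-06). Srf, the serum response factor that binds CArG boxes, averaged 11.80 in both male groups (limma adjusted p = 0.98) and was higher by 0.15 in the libraries labelled female cardioGRKO (limma adjusted p = 4.8e-05). The transcription factor Gata6 changed by -0.18 in the libraries labelled female (limma adjusted p = 0.00028) and by -0.024 in males (limma adjusted p = 0.61).

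Among 21 other genes that mark pericytes, 12 were lower and 2 higher in male cardioGRKO hearts, with a median change of -0.14, against 14.6% lower and 12.8% higher over all tested genes. In the libraries labelled female, 4 were higher and 3 lower, with a median of 0.018, which is near the 15.2% higher and 14.0% lower over all tested genes, and without the libraries labelled female floxed 1 and 2 the counts were 2 and 2. Vtn, the matrix protein vitronectin, had the largest male difference of the list, -0.42, with means of 9.96 in male cardioGRKO hearts and 10.37 in male floxed hearts (limma adjusted p = 4.4e-09). Steap4, a metalloreductase, changed by -0.22 in males (limma adjusted p = 1.9e-06) and by 0.17 in the libraries labelled female (limma adjusted p = 4.6e-05), the signs of Rgs5. Mcam, the adhesion molecule CD146, fell by 0.21 in males (limma adjusted p = 1.2e-06). Angpt1, the angiopoietin that signals to endothelial Tie receptors, had the other signs, at 0.33 in males (limma adjusted p = 9e-07) and -0.25 in the libraries labelled female (limma adjusted p = 2.6e-05). Between the cardioGRKO groups, 14 of these 21 genes were higher and 3 lower in the libraries labelled female, with a median difference of 0.10. Over all tested genes 11.9% were higher and 12.4% lower, and under the alternative settings the number of these genes higher ranged from 9, without male cardioGRKO 3, to 14.

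Of 15 genes of PDGF signalling other than Pdgfrb, 6 were lower and 2 higher in male cardioGRKO hearts, and 5 were higher and 2 lower in the libraries labelled female cardioGRKO. Over all tested genes 14.6% were lower and 12.8% higher in males, and 15.2% higher and 14.0% lower in the libraries labelled female, so that the 2 higher in males and the 2 lower in females were near those shares. Without the libraries labelled female floxed 1 and 2, the female counts were 2 higher and 1 lower. Ptpn11, the phosphatase SHP2 that binds activated receptors, averaged 12.22 in male cardioGRKO hearts and 12.59 in male floxed hearts (limma adjusted p = 2.2e-09), and it was higher by 0.20 in the libraries labelled female cardioGRKO (limma adjusted p = 3.9e-06). Pik3r1, a regulatory subunit of PI3 kinase, fell by 0.31 in males (limma adjusted p = 1.6e-06). The adaptor Grb2 rose by 0.21 in males (limma adjusted p = 1.5e-06). The co-receptor Nrp1 changed by -0.18 in males (limma adjusted p = 9.1e-06) and by 0.092 in the libraries labelled female (limma adjusted p = 0.0048).

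Of 18 genes of Notch signalling other than Notch3, 9 were lower and 2 higher in male cardioGRKO hearts, and for the libraries labelled female the counts were 3 each way. Over all tested genes 14.6% were lower and 12.8% higher in males, and the female counts were near the 14.0% lower and 15.2% higher over all genes. After quantile normalization of the libraries the male counts were 6 lower and 2 higher, and without the libraries labelled female floxed 1 and 2 they were 3 lower and 1 higher in females. The endothelial ligand Dll4 fell by 0.27 in males (limma adjusted p = 5.6e-07) and by 0.15 in the libraries labelled female (limma adjusted p = 0.00034). The ligand Dll1 fell by 0.17 in males (limma adjusted p = 0.00061) and the glycosyltransferase Lfng by 0.13 (limma adjusted p = 0.00073). Hes1, a Notch target, averaged 10.11 in both male groups and changed by -0.32 in the libraries labelled female (limma adjusted p = 3.4e-07). The cardiac partners of Kcnj8 and Abcc9 were measured too. Abcc8, a regulatory subunit found in mouse atria, changed by 0.39 in males (limma adjusted p = 3.5e-10) and by -0.15 in the libraries labelled female (limma adjusted p = 3.8e-05). Kcnj11, the pore subunit of ventricular myocytes, fell by 0.15 in males (limma adjusted p = 7.1e-06), close to the -0.17 of Abcc9.

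**Figure D3:**
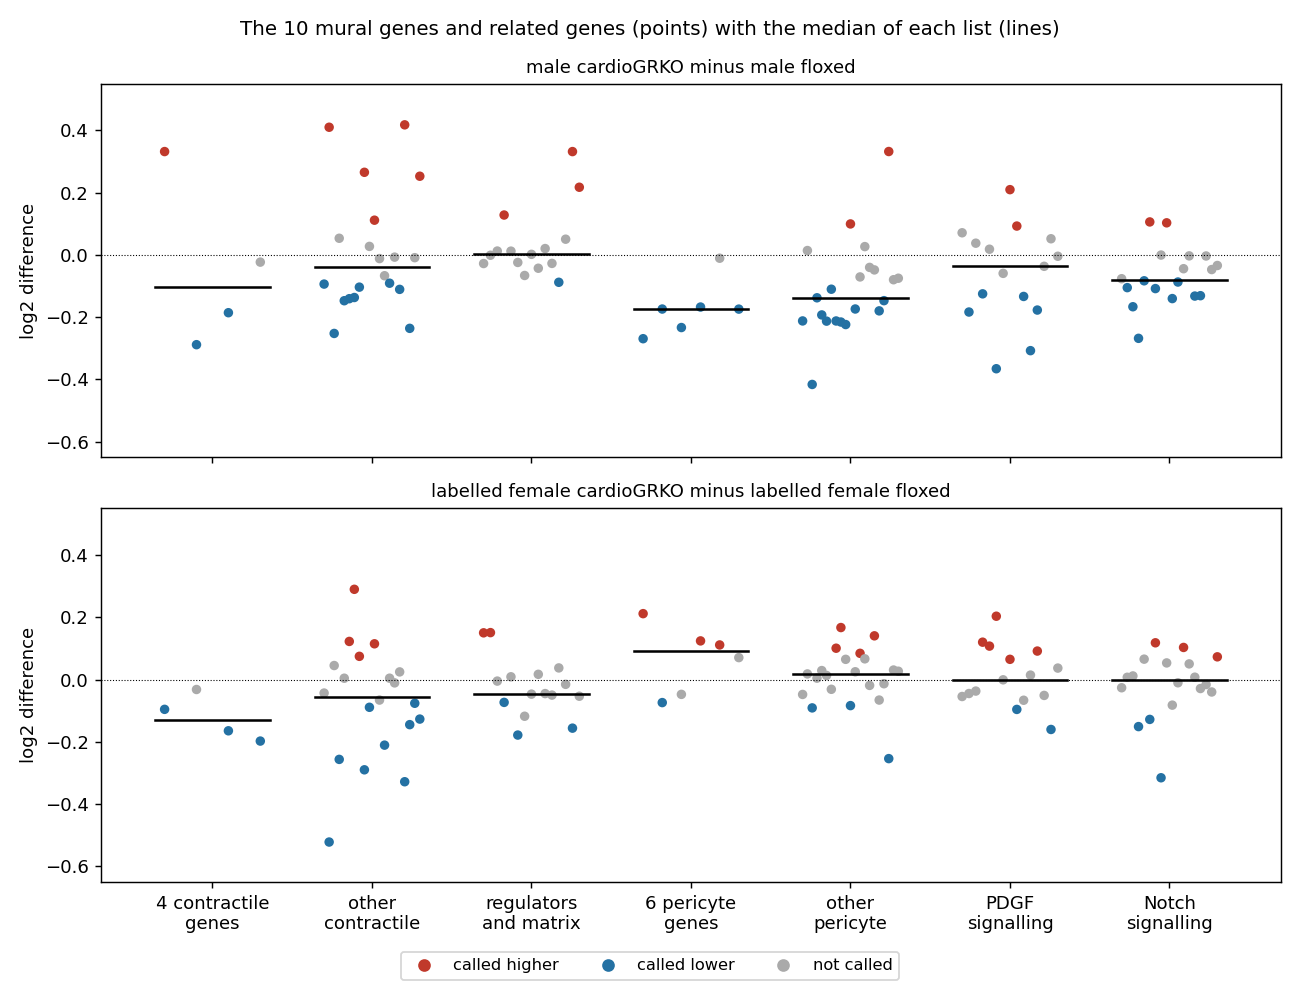
Log2 changes of the listed genes around the 10 mural genes in both sexes, 1 point per gene, with a line for each median and red points for genes called higher by limma, blue for called lower and grey for not called. The 21 other pericyte genes centre on -0.14 in males and 0.018 in the libraries labelled female, while the 20 other genes of contractile smooth muscle spread to both sides of 0.

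Markers of other cell types were measured in the same comparisons, in which 27.4% of all tested genes were called in males (12.8% higher, 14.6% lower) and 29.3% in the libraries labelled female (15.2% higher, 14.0% lower). Among the atrial genes, all 10 were higher in male cardioGRKO hearts, with a median of 1.56, and 9 of 10 were lower in the libraries labelled female cardioGRKO, with a median of -0.998. Their summed log2 level was 17.14 to 17.15 in male cardioGRKO hearts and 15.05 to 15.07 in male floxed hearts, and 15.77 to 15.79 in the libraries labelled female cardioGRKO and 16.78 to 16.83 in those labelled female floxed. Within each sex, these are the directions of Acta2, Ramp1 and Myl9. Between the floxed groups, female minus male by label, the atrial median was 0.96, beside 0.97 for Acta2. Between the cardioGRKO groups it was -1.29, beside -0.38 for Myl9 but 0.54 for Acta2. Ramp1 averaged 8.73 in the libraries labelled female cardioGRKO and 9.10 in male cardioGRKO hearts. The part of the atrial genes in those results was not tested. Of 14 endothelial markers, 11 were lower and 1 higher in males, with a summed level of 16.07 to 16.09 in male cardioGRKO hearts and 16.20 in male floxed hearts. In the libraries labelled female 6 were higher and 3 lower, with a summed level of 16.13 to 16.16 in those labelled female cardioGRKO and 16.07 to 16.10 in those labelled female floxed. The median endothelial change was -0.15 in males and 0.019 in the libraries labelled female. The medians were -0.17 and 0.091 for the 6 pericyte genes, and -0.14 and 0.018 for the 21 other pericyte genes. The part of the endothelial change in the pericyte results was not tested.

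Of 15 cardiomyocyte markers, 11 were lower and 1 higher in males, but 2 lower and 4 higher after quantile normalization. That method gives each rank the same value in every library, and many of these markers are among the most abundant genes. In either sex, the counts after it therefore cannot show whether these markers changed. Their summed level was 21.54 to 21.55 in male cardioGRKO hearts and 21.65 to 21.68 in male floxed hearts. In the libraries labelled female 7 were higher and 1 lower, or 3 higher and 3 lower after quantile normalization and 7 higher and 5 lower without the libraries labelled female floxed 1 and 2, with sums of 21.57 to 21.58 in the libraries labelled female cardioGRKO and 21.52 to 21.57 in those labelled female floxed, which overlap. The mural genes called in males or in the libraries labelled female kept their calls and directions after that normalization. The male minus female change of Pdgfrb then fell short of the threshold at -0.043 (limma adjusted p = 0.35). Of 13 fibroblast and myofibroblast markers, of cells that can themselves make Acta2, 7 were higher and 0 lower in males, and 1 was higher and 5 lower in the libraries labelled female. Their summed level was 16.07 to 16.08 in male cardioGRKO hearts and 15.94 to 15.96 in male floxed hearts, and 16.09 in the libraries labelled female cardioGRKO and 16.17 to 16.24 in those labelled female floxed. Of 8 epicardial markers, 5 were higher in males and 6 lower in the libraries labelled female. Their sums were 10.42 to 10.44 in male cardioGRKO hearts and 10.14 to 10.18 in male floxed hearts. They were 10.05 to 10.08 in the libraries labelled female cardioGRKO, and 10.46, 10.54 and 10.37 in those labelled female floxed 1, 2 and 3. Upk1b, an epicardial marker, read 7.92, 8.27 and 6.93 in these last 3. Of 11 macrophage markers, 1 was higher and 0 lower in males, and 4 were higher and 1 lower in the libraries labelled female. The fibroblast, epicardial and macrophage counts were not repeated without the libraries labelled female floxed 1 and 2. The 12 corneal markers, 11 of them tested, had summed levels of 12.53 to 12.57 in male cardioGRKO hearts and 12.55 to 12.60 in male floxed hearts, with 0 called. They had 12.50 to 12.58 in the libraries labelled female cardioGRKO and 14.60, 15.33 and 12.62 in those labelled female floxed, with all 11 tested genes called lower under the cardioGRKO label and a median difference of -1.16.

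**Figure D4:**
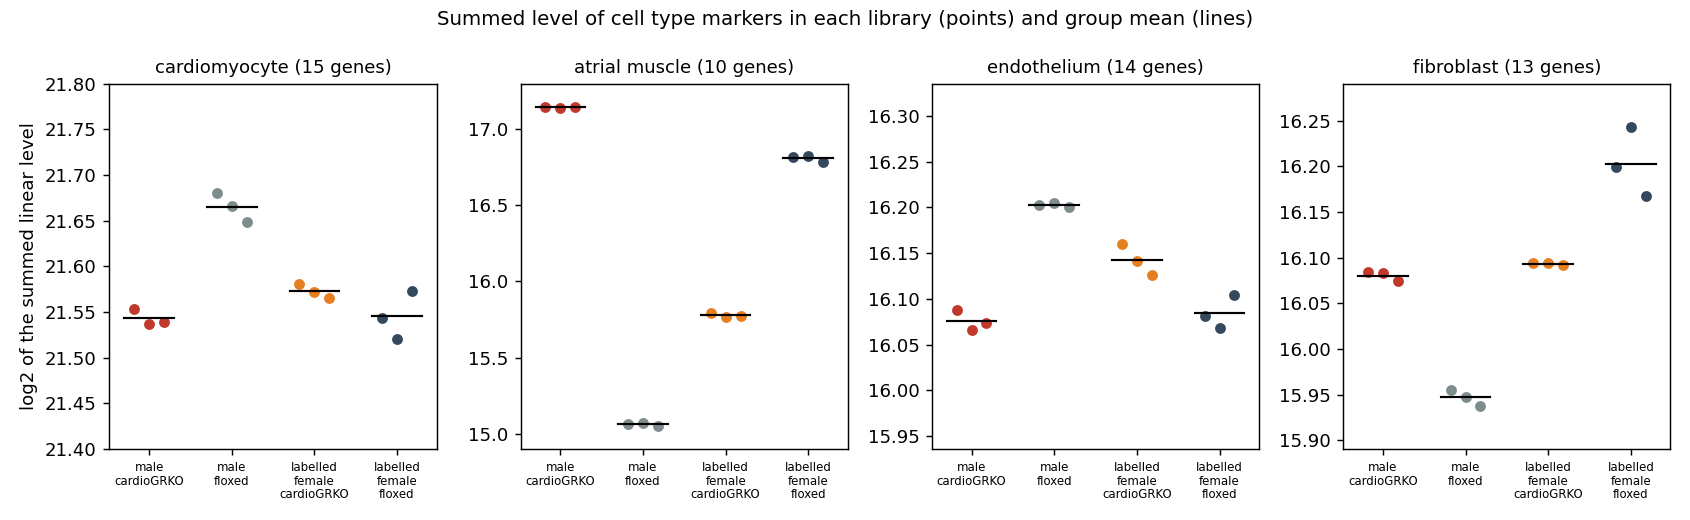
Summed log2 level of the cardiomyocyte, atrial, endothelial and fibroblast markers by library, with cardioGRKO left of floxed within each sex, points for libraries and lines for group means. The atrial sums are highest in male cardioGRKO hearts, at 17.14 to 17.15, and the endothelial sums are highest in male floxed hearts, at 16.20.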

How the data were processed

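Expression was taken as the authors deposited it, as normalized log2 values of 24918 genes in 12 heart libraries. The submitters' processing notes name Trim Galore, TopHat2, HTSeq, DESeq2 and build mm9. Versions, annotation and strand setting are not given in the sources used here. Shrinkage of low values was inferred from the values, and no header states it. Counts and depth could not be recovered, so the spread between libraries is the only precision, and how shrinkage would bear on low genes was not tested.

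Genes at a linear level of 10 or more (the log2 value turned back to the linear scale) in at least 3 libraries were tested (14721) with limma 3.58.1 in R 4.3.3, as 1 mean per group over all 12 libraries (8 residual degrees of freedom) moderated by empirical Bayes along an intensity trend. Adjusted p-values are two-sided, by Benjamini-Hochberg over the genes tested, and called under 0.05. An exact permutation test of 3 against 3 libraries cannot go below 0.1 and was not used for calls. The scripts were tested on simulated data.

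The 10 genes and the 15 lists were chosen with earlier results of these data known. Named from each list were up to 4 called genes with the smallest p, and for Acta2, Myh11, Rgs5 and Pdgfrb the genes of highest correlation. Levels per kilobase use exon lengths and actin transcripts of GENCODE M21, and promoters are RefSeq's, on another build than the authors'. Protein sequences were not used here.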

Additional observations from a re-analysis of the deposited data

Results flagged for a closer look

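For 9 of the 10 mural genes the change in males differed from that in the libraries labelled female, by limma's test of the male change minus the female change. Which genes differed, and by how much, depends on the female labels, which Nr3c1 went against. The values were 0.43 for Acta2, -0.26 for Myh11, 0.17 for Cnn1, -0.48 for Rgs5, -0.10 for Pdgfrb, -0.19 for Kcnj8, -0.29 for Abcc9, -0.12 for Cspg4 and -0.24 for Notch3. Of all tested genes 31.3% were called in the same comparison, and Nr3c1, at -0.70, was among those that differed. Libraries were left out 1 at a time, as given below, but with 3 libraries a group no test for outliers was run.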

How the results depend on the processing

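Each of 50 results (10 genes in 5 comparisons) was recomputed under 26 settings, which gave 1090 values. Of these, 1045 kept their direction and their side of the threshold, 35 lost a call and 3, all of Notch3 in the libraries labelled female, gained one. The 7 that changed sign were called neither before nor after. They were Tagln, male minus female change, at 0.017 after quantile normalization, 0.0045 without the library labelled female floxed 2 and 0.041 without numbers 1 and 2. Likewise Cnn1 in males was 0.016 without male floxed 3, and Cspg4 in males was 0.0021 after quantile normalization and 0.010 without male cardioGRKO 2. Between the cardioGRKO groups, Cspg4 was 0.0097 without male cardioGRKO 1. With 1 library left out at a time, these results ranged from -0.052 to 0.0045 for Tagln, from -0.056 to 0.016 for Cnn1, from -0.031 to 0.010 for Cspg4 in males and from -0.032 to 0.0097 for Cspg4 between the cardioGRKO groups. The causes were not tested.

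Without the libraries labelled female floxed 1 and 2, which leaves 1 library assumed to vary like the other groups, 2734 genes were called in females, against 4309 with them, and the contractile minus pericyte median was -0.28. With 1 library left out at a time, that median ranged from -0.24 to -0.18 in females and from 0.058 to 0.086 in males. Called genes then ranged from 3391 to 4269 in males, 3393 to 4272 in females, 4133 to 4907 for the difference, 2735 to 3863 between the cardioGRKO groups and 5714 to 6491 between the floxed groups.

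The replicate numbers showed no clear pairing of the libraries. Same-numbered cardioGRKO and floxed libraries correlated at -0.11 to 0.15 in their deviations, and 2 of 6 matched their own number best. Whether the libraries were paired by design cannot be told from these values. With the replicate number as a block, 3752 genes were called in males (4032 without), 3988 in females, 4428 for the difference, 3417 between the cardioGRKO groups and 6418 between the floxed groups, and of the 10 genes' calls only Abcc9 between the cardioGRKO groups was lost (limma adjusted p = 0.051). Depth is unknown, so no limit from counting error can be given.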
